A study of Homo sapiens with 6 samples.

Results

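Transcript levels of 10 protein kinases that drive and police mitosis were followed in U2OS cells with and without the transcriptional repressor E2F7: the Aurora kinases AURKA and AURKB, the Polo-like kinase PLK1, the spindle checkpoint kinases BUB1, BUB1B and TTK, and NEK2, MELK, MASTL and PBK. They were taken by symbol, as the entries of these names in the 6 deposited tables that were listed at all 3 times. All 10 were, out of 11886 genes listed at all 3 times and 13161 listed at any. MASTL and BUB1B rose in cells with siRNA against E2F7, where 6.76% of all tested genes were higher and 7.13% lower. The BUB1B call did not hold with the libraries of 3 h or of 12 h left out. With all 6 libraries none of the 10 passed that test in the other direction. Between 0 and 12 h after release 7 of the 10 rose and MASTL fell, where 9.78% of all tested genes rose and 14.6% fell.

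U2OS is an established human osteosarcoma line. Cells carried a non-targeting control siRNA (siNT) or siRNA against E2F7 (siE2F7). All of them had been held in 4 mM hydroxyurea, which stops DNA replication by depleting deoxynucleotides, for 24 h and then washed, so no library came from cells without the drug. RNA was taken at 0, 3 and 12 h, taken by the series to stand for the entry into S phase, S phase itself and the border of G2 and mitosis, with 1 library for each siRNA at each time. The siRNAs used are not described further, and the series rests on 1 cell line.

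Mitotic kinases act in sequence as a cell enters and leaves division. MASTL (Greatwall) phosphorylates ENSA and ARPP19, which then inhibit the phosphatase PP2A-B55 so that CDK1 substrates stay phosphorylated. AURKA and PLK1 mature the centrosomes and build the spindle, and AURKB corrects faulty attachments of chromosomes to it. TTK, BUB1 and BUB1B (BubR1) hold the anaphase-promoting complex in check until every kinetochore is attached. NEK2 separates the centrosomes, and MELK and PBK are kinases whose transcripts are abundant in dividing cells. E2F7 is an atypical E2F that represses E2F target genes, many of which serve DNA replication, whereas many mitotic genes are controlled through CCAAT boxes and the cell cycle genes homology region (CHR), the site bound by the MuvB complex together with B-Myb and FOXM1.

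The RefSeq promoter windows of the 2 kinases that rose in siE2F7 and of the 2 with the steepest change over time are shown first. These windows were picked by those results, and any link between their sites and the results was not tested. Each runs from 250 bases before to 50 bases after the annotated start, 5′ to 3′ along the gene, on GRCh38.p14. Capitals mark 3 motifs. The CHR is spelled TTTGAA; its variant form is spelled TTCGAA. The CCAAT box is spelled by its name. The E2F site is spelled GCGGGAA; its shifted form, which may overlap the former, is spelled GGCGGGA; its longer form is spelled GGCGCGAA. All were searched on both strands, so that a site on the other strand appears as its complement. MASTL lies at chr10:27155102-27155401 on the plus strand, BUB1B at chr15:40160819-40161118 on the plus strand, PLK1 at chr16:23678639-23678938 on the plus strand and NEK2 at chr1:211675572-211675871 on the minus strand.
MASTL: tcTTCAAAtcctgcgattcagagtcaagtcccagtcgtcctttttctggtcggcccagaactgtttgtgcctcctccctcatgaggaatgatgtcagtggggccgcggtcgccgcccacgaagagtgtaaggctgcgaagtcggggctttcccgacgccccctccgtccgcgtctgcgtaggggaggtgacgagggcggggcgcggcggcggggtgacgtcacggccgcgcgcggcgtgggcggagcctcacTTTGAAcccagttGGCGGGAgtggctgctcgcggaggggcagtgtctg
BUB1B: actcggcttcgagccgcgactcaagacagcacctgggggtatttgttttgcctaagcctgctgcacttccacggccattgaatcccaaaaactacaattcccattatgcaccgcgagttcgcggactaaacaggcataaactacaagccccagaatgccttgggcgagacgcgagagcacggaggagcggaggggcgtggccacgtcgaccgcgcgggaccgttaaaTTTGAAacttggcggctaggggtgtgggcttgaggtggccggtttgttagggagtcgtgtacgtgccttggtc
PLK1: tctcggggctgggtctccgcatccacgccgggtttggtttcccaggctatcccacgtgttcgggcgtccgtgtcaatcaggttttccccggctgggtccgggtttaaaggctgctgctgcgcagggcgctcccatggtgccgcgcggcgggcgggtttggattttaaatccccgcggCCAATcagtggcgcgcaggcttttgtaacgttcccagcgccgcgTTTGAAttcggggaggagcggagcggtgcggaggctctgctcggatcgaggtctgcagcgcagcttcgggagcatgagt
NEK2: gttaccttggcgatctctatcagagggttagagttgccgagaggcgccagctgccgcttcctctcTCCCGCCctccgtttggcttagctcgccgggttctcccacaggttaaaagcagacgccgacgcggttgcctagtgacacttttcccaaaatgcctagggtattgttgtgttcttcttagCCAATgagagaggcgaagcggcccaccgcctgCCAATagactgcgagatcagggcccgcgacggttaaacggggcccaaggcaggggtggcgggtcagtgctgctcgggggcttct

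Counting from the start as base 1, MASTL held a CHR at base 3 and another on the opposite strand at base -248, with an E2F site at base 16. BUB1B held a CHR at base -23 and neither of the other motifs. PLK1 held a CCAAT box at base -73 and a CHR at base -29, and NEK2 held CCAAT boxes at bases -66 and -34 with an E2F site on the opposite strand at base -185. MASTL was the one window among those of the kinases with both a CHR and an E2F site.

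Windows of this kind were found for 7 of the 10 kinases. BUB1 held a CHR of the form TTCGAA at base 2 with CCAAT boxes at bases -79 and -54, both windows of AURKB held a CCAAT box alone, and MELK held none of the motifs. AURKA, TTK and PBK had no entry. Among 12188 windows of all tested genes, 11.7% held a CHR, 34.7% a CCAAT box and 28.8% an E2F site. These are matches of letters, not measured binding, and a window without a match says only that these letters are not in it.

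The targeted gene was lower in every siE2F7 library. E2F7 stood at 20.3, 29.4 and 16.6 FPKM in siNT at 0, 3 and 12 h, and at 9.48, 10.6 and 5.52 FPKM in siE2F7. FPKM divides the fragments of a gene by the length of its transcript and the fragments mapped in the library, so levels can be compared between genes. The log2 change was -1.37 ± 0.10 (SE, n = 3 pairs, limma, adjusted p = 0.00102), and the 2 arms did not overlap. E2F8, the other atypical E2F, rose in siE2F7 by 1.63 ± 0.15 on the log2 scale (SE, limma, adjusted p = 0.00142).

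Of the markers of a bone or mesenchymal cell, VIM was at 759 to 886 FPKM, SPARC at 401 to 528 and COL1A1 at 261 to 376, with ALPL and RUNX2 lower at 4.61 to 12.4 and 2.83 to 4.60. Of 5 markers of blood, epithelium or endothelium, EPCAM alone was listed at all times, at 2.33 to 3.27 FPKM, and CDH1 was listed in 4 libraries. ALPL was lower in siE2F7, with a log2 change of -0.37 (limma, adjusted p = 0.043) that did not pass with any of the 3 times left out (adjusted p from 0.0693 to 0.135). The other 4 bone or mesenchymal markers did not pass, and the part of these differences in the results below was not tested.

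At the G1/S arrest the 10 kinases spanned a wide range of levels. In the siNT library of 0 h the order was PBK at 88.1 FPKM, MELK at 78.5, AURKA at 44.0, BUB1 at 40.8, MASTL at 33.7, PLK1 at 23.9, AURKB at 22.0, BUB1B at 18.7, NEK2 at 17.3 and TTK at 14.9. At 12 h the same arm ran from AURKA at 114.9 FPKM, then PBK at 88.0 and PLK1 at 81.6, down to TTK at 27.6 and MASTL at 20.3. AURKA thus moved from the third place to the first, PLK1 from the sixth to the third, and MASTL from the fifth to the last. With 1 library at each point, the spread of neighbours such as PLK1 and AURKB at 0 h is not known and their order is only that of these libraries. In siE2F7 at 12 h MASTL was above AURKB and TTK.

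**Figure D1:**
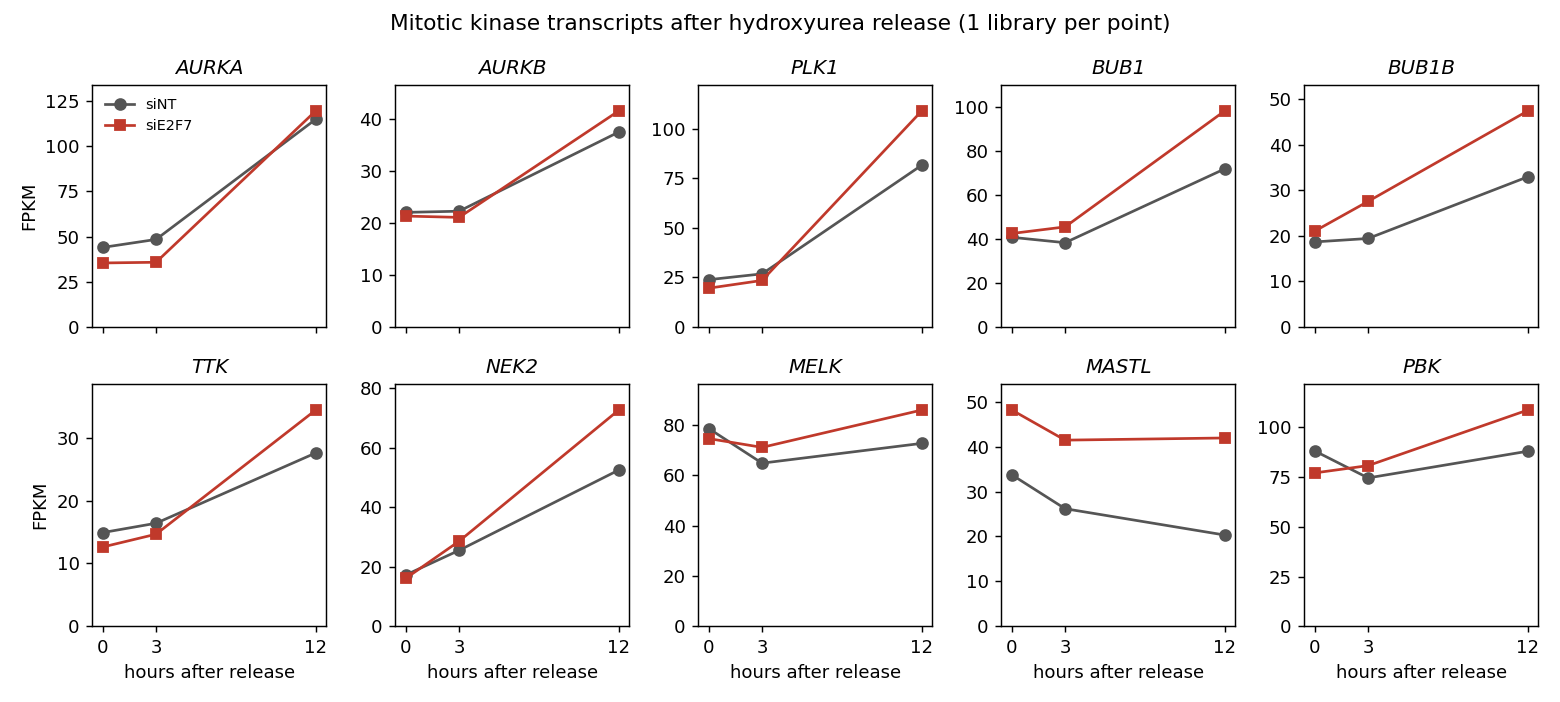
Level of each kinase in FPKM (vertical axis, from 0) against hours after release (horizontal axis), with 1 library per point, circles for siNT and squares for siE2F7. PLK1 climbs from 23.9 to 81.6 in siNT and from 19.6 to 109.0 in siE2F7, while the 3 siE2F7 points of MASTL, at 41.5 to 48.2, lie above its 3 siNT points.

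The first comparison asked how each kinase changed as cells went from the arrest towards mitosis, whichever siRNA they carried. AURKA, AURKB, PLK1, BUB1, BUB1B, TTK and NEK2 rose from 0 to 12 h, MASTL fell, and MELK and PBK did not pass the test. Of all tested genes, 9.78% rose and 14.6% fell, with a median log2 change of -0.04, beside a median of 1.001 over the 10 kinases. The 2 arms were the 2 observations of each time in this test. RNA was measured in bulk, so more cells of a stage and more RNA per cell cannot be told apart. Whether the tables of different times were scaled together is not known, and 12 h values rest on 1 library in each arm.

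PLK1, which triggers mitotic entry and exit at several steps, had the largest change of the 10. It was at 23.9, 26.8 and 81.6 FPKM in siNT at 0, 3 and 12 h, and at 19.6, 23.5 and 109.0 FPKM in siE2F7. Its level was similar at 0 and 3 h and high at 12 h in both arms. The log2 change at 12 h was 2.12 ± 0.16 (SE, limma, adjusted p = 0.000631), 3.40-fold in siNT and 5.53-fold in siE2F7. The entry of PLK1 spans 34621 bases, where the RefSeq gene spans 11479, and whether reads of a neighbour entered these values was not tested.

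NEK2, the kinase of centrosome separation, started earlier. It was at 17.3, 25.5 and 52.5 FPKM in siNT and at 16.1, 28.6 and 72.7 FPKM in siE2F7, so it was above its 0 h level at 3 h in both arms. It rose by 1.88 ± 0.13 on the log2 scale at 12 h (SE, limma, adjusted p = 0.000486). At 3 h it was the only one of the 10 to pass, with a log2 change of 0.69 ± 0.13 (adjusted p = 0.0145), against 7.97% of all tested genes higher and 11.2% lower at that time. The adjusted p of that change was 0.0504 when the variance was estimated without a trend.

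AURKA, the centrosomal Aurora kinase, was at 44.0, 48.4 and 114.9 FPKM in siNT and at 35.4, 35.8 and 119.5 FPKM in siE2F7. Both 12 h libraries were far above the other 4, and the log2 change was 1.57 ± 0.12 (SE, adjusted p = 0.00065). AURKB, the catalytic subunit of the chromosomal passenger complex, was lower and moved less. It was at 22.0, 22.3 and 37.5 FPKM in siNT and at 21.3, 21.1 and 41.5 FPKM in siE2F7, a log2 change of 0.86 ± 0.09 (SE, adjusted p = 0.00158).

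The 3 spindle checkpoint kinases rose by like amounts. TTK, which recruits the checkpoint to kinetochores, was at 14.9, 16.4 and 27.6 FPKM in siNT and at 12.6, 14.7 and 34.4 FPKM in siE2F7, a log2 change of 1.16 ± 0.14 (SE, adjusted p = 0.00219). BUB1, a kinetochore kinase and scaffold, was at 40.8, 38.3 and 71.9 FPKM in siNT and at 42.5, 45.5 and 98.2 FPKM in siE2F7, a log2 change of 1.01 ± 0.10 (SE, adjusted p = 0.00142). BUB1B, whose product is part of the mitotic checkpoint complex, was at 18.7, 19.4 and 32.9 FPKM in siNT and at 21.0, 27.5 and 47.4 FPKM in siE2F7, a log2 change of 0.99 ± 0.11 (SE, adjusted p = 0.0017). In all 3 the 12 h libraries were the highest of their arm.

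The other 3 kinases did not share this course. MELK was at 78.5, 64.8 and 72.7 FPKM in siNT and at 74.6, 71.1 and 85.9 FPKM in siE2F7, with no clear trend and a log2 change at 12 h of 0.05 (95% interval -0.18 to 0.27, adjusted p = 0.755). PBK was at 88.1, 74.6 and 88.0 FPKM in siNT and at 77.1, 80.8 and 108.7 FPKM in siE2F7, a log2 change of 0.25 (95% interval -0.03 to 0.52, adjusted p = 0.169). MASTL went the other way. It stood at 33.7, 26.2 and 20.3 FPKM in siNT and at 48.2, 41.5 and 41.9 FPKM in siE2F7, a log2 change of -0.46 ± 0.13 (SE, adjusted p = 0.0357), which was 0.60-fold in siNT and 0.87-fold in siE2F7. Without the variance trend its adjusted p was 0.0918.

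**Figure D2:**
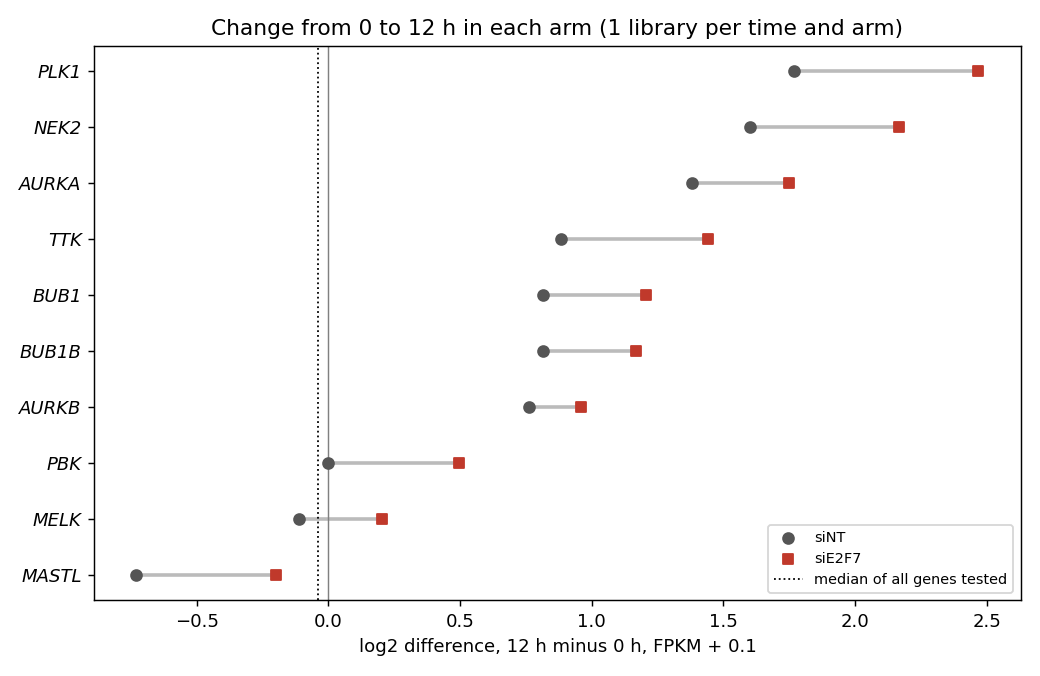
Log2 difference between the 12 h and the 0 h library of each kinase (horizontal axis, FPKM + 0.1), circles for siNT and squares for siE2F7, with 1 library per time and arm and a dotted line at the median of all tested genes. In each of the 10 kinases the siE2F7 point lies to the right of the siNT point, and MASTL lies below 0 in both arms.

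The second comparison asked which kinases depend on E2F7, as the difference between siE2F7 and siNT within each time. MASTL and BUB1B rose in siE2F7, 2 of the 10, where 6.76% of all tested genes were higher and 7.13% lower. No kinase passed in the lower direction. The log2 changes had a median of 0.09 over the 10 kinases and -0.03 over all genes, and 4 of the 10 had an unadjusted p under 0.05, as did 30.2% of all genes. No label states whether the libraries came from separate cultures. The 3 pairs of this test are the 3 times, so its spread holds any change of the ratio with time together with noise. The fit also borrows spread from other genes, and the p-values do not measure the spread between replicates.

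MASTL, the Greatwall kinase, had the largest difference. In siNT it was at 33.7, 26.2 and 20.3 FPKM at 0, 3 and 12 h, and in siE2F7 at 48.2, 41.5 and 41.9 FPKM. Every siE2F7 library was above every siNT library, which held for MASTL alone of the 10 and for 6.88% of all tested genes. The difference was 1.43-fold at 0 h, 1.58-fold at 3 h and 2.06-fold at 12 h. The mean log2 change was 0.74 ± 0.10 (SE, n = 3 pairs, limma, adjusted p = 0.00517), and with each time left out in turn it lay between 0.59 and 0.85 and still passed. By size, its ratio stood at place 432 of 11886 at 0 h, 345 at 3 h and 153 at 12 h, counted from the highest. Without time as a block its adjusted p was 0.181.

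BUB1B was at 18.7 against 21.0 FPKM at 0 h, 19.4 against 27.5 at 3 h and 32.9 against 47.4 at 12 h, siNT before siE2F7. Its entry spans 116479 bases, where the RefSeq gene spans 60055, and whether reads of a neighbour entered these values was not tested. Within each time the siE2F7 library was the higher, but the 3 h library of siE2F7 was below the 12 h library of siNT, so the arms overlapped. The log2 ratios were 0.17, 0.50 and 0.52, and their mean was 0.40 ± 0.09 (SE, n = 3 pairs, limma, adjusted p = 0.0259). This call did not hold without the libraries of 3 h, where the log2 change was 0.35 with an adjusted p of 0.118, or without those of 12 h, where it was 0.34 with an adjusted p of 0.0711. Without the variance trend the adjusted p was 0.0812, and without the time block 0.8.

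BUB1 had the same sign at each time without passing. Its ratios were 0.06, 0.25 and 0.45 on the log2 scale, and the mean was 0.25 (95% interval 0.05 to 0.45, adjusted p = 0.0912). BUB1, BUB1B and MASTL were the 3 kinases with the siE2F7 library above the siNT library at each of the 3 times, as were 22.8% of all tested genes. None of the 10 was below at each time, against 28.6% of all tested genes.

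The ratios of the remaining kinases changed sign between times. AURKA had log2 ratios of -0.31, -0.43 and 0.06 at 0, 3 and 12 h and a mean of -0.23 (95% interval -0.46 to -0.00, adjusted p = 0.165). Without the 12 h libraries its log2 change was -0.37 with an adjusted p of 0.0293, so its call depends on that time. PLK1 had log2 ratios of -0.28, -0.19 and 0.42, and TTK of -0.24, -0.16 and 0.32. Their means were -0.02 (95% interval -0.32 to 0.29, adjusted p = 0.938) and -0.03 (95% interval -0.29 to 0.24, adjusted p = 0.896). For these 3 kinases the 0 and 3 h libraries were lower in siE2F7 and the 12 h library was higher.

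AURKB stayed close to its siNT level, with log2 ratios of -0.05, -0.08 and 0.15, with a mean of 0.01 (95% interval -0.17 to 0.18, adjusted p = 0.958). NEK2, MELK and PBK were below siNT at 0 h and above it at 3 and 12 h. Their log2 ratios at 0 h were -0.10, -0.07 and -0.19, and at 12 h 0.47, 0.24 and 0.30. The mean changes were 0.18 for NEK2 (adjusted p = 0.309), 0.10 for MELK (adjusted p = 0.435) and 0.08 for PBK (adjusted p = 0.646). The 95% intervals ran from -0.07 to 0.43, from -0.08 to 0.28 and from -0.15 to 0.30, and each includes 0.

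**Figure D3:**
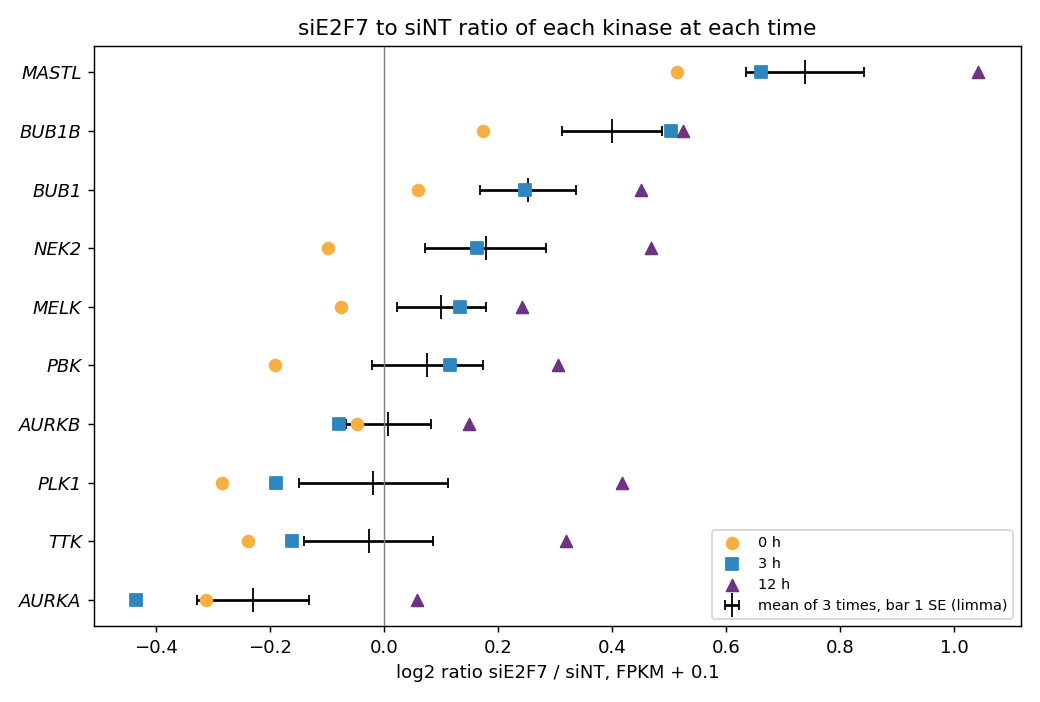
Log2 ratio of siE2F7 to siNT for each kinase (horizontal axis, FPKM + 0.1) at 0 h (circles), 3 h (squares) and 12 h (triangles), with the mean of the 3 times and its SE from limma as a bar. The triangle is the rightmost point in each of the 10 kinases, and MASTL, with ratios of 0.51, 0.66 and 1.04, is the highest at each time.

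Across the kinases, then, the ratios in these libraries differed between the times. All 10 share the same libraries and the same 12 h pair, so they are not separate observations. The 12 h ratio was the highest of the 3 in 10 of 10 kinases, where this held for 30.6% of all tested genes. The ratios stood in the order 0, 3 and 12 h in 8 of 10, against 16.4% of all genes. The median ratio of the 10 went from -0.09 at 0 h to 0.12 at 3 h and 0.37 at 12 h on the log2 scale, while the median of all genes was -0.04, 0.00 and -0.04. A test of the 12 h ratio against the mean of the other 2 passed in 0 of 10 kinases by limma, and 5 of the 10 had an unadjusted p under 0.05, as did 6.89% of all genes. This test had 1 residual degree of freedom, and of all genes 0.0421% passed higher and 0.0925% lower.

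PLK1 had the largest of these differences, at 0.65 ± 0.16 (SE, limma, adjusted p = 0.246), followed by TTK at 0.52 (adjusted p = 0.447) and MASTL at 0.46 (adjusted p = 0.529). The smallest was that of BUB1B, at 0.19 (adjusted p = 0.956). Seen within each arm, the rise from 0 to 12 h was 2.60-fold in siNT and 3.36-fold in siE2F7 for AURKA, 1.70-fold and 1.94-fold for AURKB, 1.84-fold and 2.71-fold for TTK, and 3.03-fold and 4.49-fold for NEK2. BUB1 and BUB1B both rose 1.76-fold in siNT, and 2.31-fold and 2.24-fold in siE2F7. The timing of the 2 arms through the cycle was not measured in these libraries, and the 12 h ratio of each kinase rests on 1 pair.

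The genes that work with each kinase were then set beside it. The chromosomal passenger complex holds AURKB with INCENP, survivin (BIRC5) and borealin (CDCA8). Of these 3 partners BIRC5 rose in siE2F7, from 81.4 to 90.4 FPKM at 0 h, 78.4 to 108.4 at 3 h and 112.8 to 168.4 at 12 h, a log2 change of 0.40 ± 0.09 (SE, limma, adjusted p = 0.0287). That call did not hold without the libraries of 3 h (adjusted p = 0.0975) or 12 h (adjusted p = 0.101). CDCA8 had a log2 change of 0.26 (adjusted p = 0.0561) and INCENP of 0.18 (adjusted p = 0.189). All 3 rose from 0 to 12 h, by 0.68 to 1.30 on the log2 scale, as AURKB did.

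For Aurora A 8 activators and binding partners were listed, which share BIRC5 with the list above. TACC3, which Aurora A phosphorylates and loads onto spindle microtubules, rose in siE2F7 from 33.8 to 41.7 FPKM at 0 h, 30.1 to 41.9 at 3 h and 48.3 to 69.3 at 12 h, a log2 change of 0.43 ± 0.07 (SE, limma, adjusted p = 0.00935). TPX2, its main activator on the spindle, was higher at each time with a log2 change of 0.25 that did not pass (adjusted p = 0.0615). BORA, which lets Aurora A activate PLK1, had log2 ratios of -0.23, -0.48 and 0.06, lower at 0 and 3 h like those of AURKA. Of the 8 partners 2 rose, none fell and 6 did not pass, and the median log2 change was 0.19.

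Of the other Polo-like kinases PLK2, PLK3 and PLK4 were measured. None passed in siE2F7, with log2 changes of -0.02, -0.36 and 0.11. Over time they moved in different directions. PLK2, a stress-responsive paralog, fell by 0.61 on the log2 scale from 0 to 12 h (adjusted p = 0.00303), and PLK4, the kinase of centriole duplication, rose by 0.42 (adjusted p = 0.015).

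The spindle checkpoint also needs proteins that are not kinases. Of 12 measured, BUB3, KNL1 and ZWINT rose in siE2F7, none fell and 9 did not pass, with a median log2 change of 0.16. BUB3, which BUB1 and BUB1B both bind, went from 103.0 to 125.4 FPKM at 0 h, 99.3 to 140.5 at 3 h and 133.3 to 196.4 at 12 h, a log2 change of 0.45 ± 0.08 (SE, limma, adjusted p = 0.0104), with an adjusted p of 0.0508 without the variance trend. KNL1, the kinetochore scaffold that docks BUB3 with BUB1 and is listed under its older symbol CASC5, changed by 0.50 (adjusted p = 0.0172), and by 0.46 without the 0 h libraries (adjusted p = 0.064). ZWINT, a KNL1 partner, changed by 0.40 (adjusted p = 0.0274), a call that did not hold without the libraries of 3 h (adjusted p = 0.0894) or 12 h (adjusted p = 0.112).

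CDC20, the target that the checkpoint holds back, had a log2 change in siE2F7 of -0.11 (adjusted p = 0.468), with ratios of -0.30, -0.17 and 0.14 that had the signs of those of PLK1. It rose by 1.82 ± 0.11 on the log2 scale from 0 to 12 h (SE, limma, adjusted p = 0.000349). MAD2L1, which forms the checkpoint complex with BUB1B and BUB3, had log2 ratios of -0.14, 0.29 and 0.58 and a mean of 0.25 that did not pass (adjusted p = 0.233).

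In the pathway of MASTL 1 of 7 measured genes fell in siE2F7 and none rose. ARPP19, a substrate of MASTL, fell in siE2F7, from 33.4 to 25.4 FPKM at 0 h, 31.9 to 24.98 at 3 h and 27.1 to 20.0 at 12 h. All 3 siE2F7 libraries were below the 3 siNT libraries, and the log2 change was -0.39 ± 0.07 (SE, limma, adjusted p = 0.00972). ENSA, the other substrate, was at 98.0 to 122.3 FPKM with a log2 change of -0.06 (adjusted p = 0.639). Of the PP2A subunits PPP2R2A, PPP2R2D, PPP2R1A, PPP2CA and PPP2CB none passed, with log2 changes from -0.18 to 0.21. In the siE2F7 library of 12 h MASTL was thus 2.06-fold above siNT while ARPP19 had a log2 ratio of -0.44.

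Among 15 other kinases of mitosis and its entry checkpoint, 6 rose in siE2F7 and 1 fell, with a median log2 change of 0.09. Of the 6, NEK7 and SLK did not pass without the variance trend (limma, adjusted p = 0.0566 and 0.0899). SLK also did not pass without the libraries of 0 h (adjusted p = 0.142) or 3 h (adjusted p = 0.162). CIT (citron kinase, needed for abscission) had a log2 change of 1.03 ± 0.11 (SE, limma, adjusted p = 0.00228) and PKMYT1, which inhibits CDK1, of 0.98 ± 0.13 (SE, limma, adjusted p = 0.00448). CHEK1, the replication checkpoint kinase, changed by 0.75 (adjusted p = 0.00233) and WEE1, the other CDK1 inhibitor, by 0.61 (adjusted p = 0.00267). NEK6, which acts downstream of NEK9 in spindle formation, fell by 0.56 on the log2 scale (adjusted p = 0.00493). CDK1 itself had a log2 change of 0.26 that did not pass (adjusted p = 0.0742).

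The regulators that act through the CHR were also measured. MYBL2 (B-Myb) rose in siE2F7 from 151.6 to 213.1 FPKM at 0 h, 140.6 to 214.8 at 3 h and 109.7 to 199.4 at 12 h, a log2 change of 0.65 ± 0.08 (SE, limma, adjusted p = 0.00416). RBBP4, a histone-binding subunit of MuvB and of other complexes, rose by 0.74 (adjusted p = 0.00356), and LIN52, a MuvB subunit, by 0.38 (adjusted p = 0.0206). The LIN52 call did not hold without the libraries of 3 h (adjusted p = 0.0958) or 12 h (adjusted p = 0.058). Of 9 measured regulators 3 rose, none fell and 6 did not pass. FOXM1 was listed in 4 of the 6 libraries, so it was not in the main fit, and no result is given for it here.

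A list of mitotic genes that are not kinases and a list of G1/S E2F targets served for comparison. Of 20 mitotic genes, such as CCNB1, CENPA and KIF11, all 20 rose from 0 to 12 h, with a median log2 change of 1.13. In siE2F7 6 of them rose and none fell. Of the 6, TOP2A and KIF23 did not pass without the variance trend (limma, adjusted p = 0.0668 and 0.124). The median ratio of the 20 mitotic genes went from -0.00 at 0 h to 0.18 at 3 h and 0.43 at 12 h. The 12 h ratio was above the 0 h ratio in 20 of 20 mitotic genes and in 10 of 10 kinases, where this held for 48.8% of all genes. NUSAP1, a microtubule bundling protein, had the highest change of these in siE2F7, at 0.66 ± 0.11 on the log2 scale (SE, limma, adjusted p = 0.00893), then PRC1 of the spindle midzone at 0.44 (adjusted p = 0.00928), the centromeric histone CENPA at 0.39 (adjusted p = 0.0312) and the motor KIF11 at 0.38 (adjusted p = 0.0251). The calls of CENPA and KIF11 did not hold without the libraries of 3 h (adjusted p = 0.119 and 0.058) or of 12 h (adjusted p = 0.0962 and 0.0857).

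The G1/S targets took another course in level over time, while their ratios also rose. Their 12 h ratio was above the 0 h ratio in 14 of 14. The median ratio was 0.83 at 0 h, 1.25 at 3 h and 1.45 at 12 h on the log2 scale. All 14, among them MCM6, MCM5, E2F1 and GINS2, rose in siE2F7, with a median log2 change of 1.15, and 9 of them fell from 0 to 12 h. MCM6, a helicase subunit, changed by 2.27 ± 0.21 (SE, limma, adjusted p = 0.00166) and MCM5, of the same helicase, by 1.82 (adjusted p = 0.00102). E2F1, an activating E2F, changed by 1.61 (adjusted p = 0.00228) and GINS2 of the replication fork by 1.56 (adjusted p = 0.00106). The difference of MASTL, 0.74, was below this median and near the changes of TK1 (0.79) and MCM4 (0.78), which are named after their values were seen.

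The course of each kinase over the 6 libraries was set beside the mean course of these 2 lists, a comparison chosen after the values were seen and given as a description. Pearson's r with the mean of the mitotic genes was 0.91 to 0.99 for AURKA, AURKB, PLK1, BUB1, BUB1B, TTK and NEK2, 0.85 for PBK, 0.59 for MELK and -0.11 for MASTL. With the mean of the G1/S targets it was 0.97 for MASTL, 0.27 for MELK and between -0.55 and 0.01 for the other 8. Between kinases the highest r was that of PLK1 with TTK, at 0.996, and the lowest was that of AURKA with MASTL, at -0.45. These r are over 6 points that share the libraries and the 3 times, so they carry no p.

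**Figure D4:**
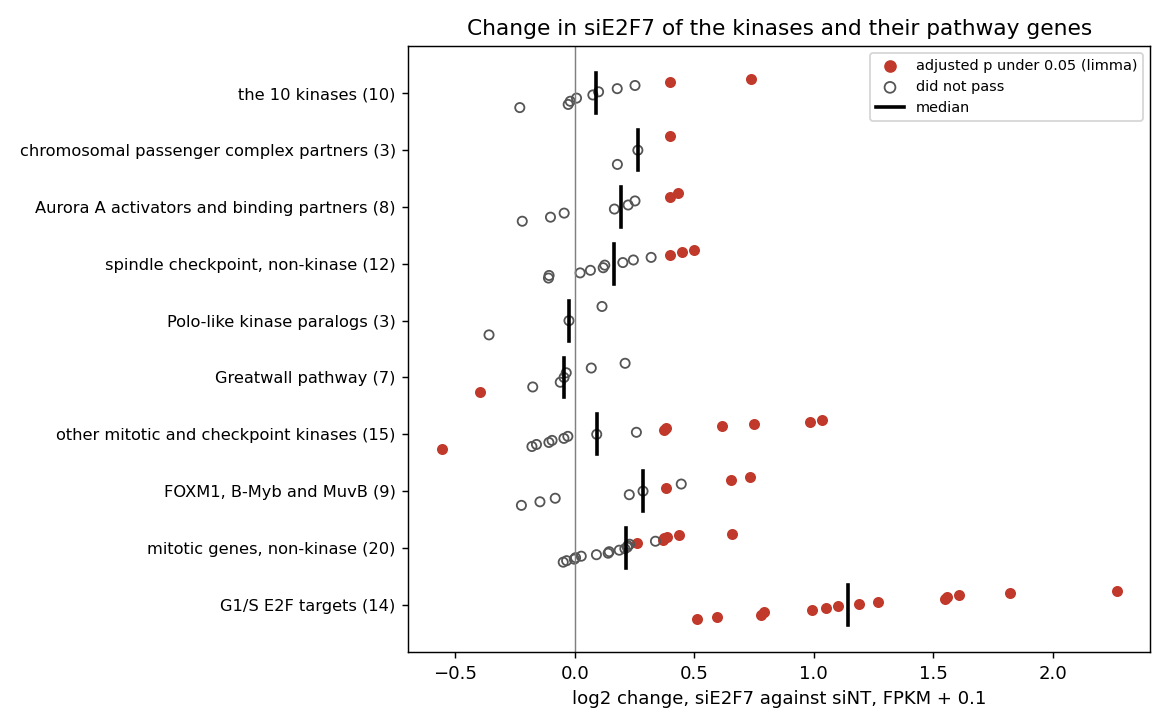
Log2 change in siE2F7 against siNT (horizontal axis, FPKM + 0.1) of the 10 kinases and of the genes of each comparison list (vertical axis, with the number measured), filled where the adjusted p by limma was under 0.05, open where it was not, with a black line at the median. The 10 kinases have a median of 0.09, with MASTL at 0.74 on the right, and all 14 G1/S targets are filled with a median of 1.15.

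The 8 other genes whose course was most like the mean course of the 10 kinases, among 11872 genes compared over the 6 libraries, were CDIPT (r = 0.998), SKA2 (r = 0.996), SPAG5 (r = 0.995), RNF26 (r = 0.994), GTSE1 (r = 0.993), RTEL1 (r = 0.990), HP1BP3 (r = 0.988) and CDKN3 (r = 0.988). SPAG5 (astrin), which binds spindle microtubules, was at 40.9, 37.8 and 60.1 FPKM in siNT and at 42.4, 44.6 and 83.6 FPKM in siE2F7. CDIPT, an enzyme of phosphatidylinositol synthesis, moved much less in size, between 14.7 and 21.3 FPKM. Of the 8, CDKN3 was the one to pass in siE2F7, with a log2 change of 0.37 (adjusted p = 0.0478).

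Neighbours on the chromosome were set beside the kinases after their values were seen. The closest tested entry to MASTL is YME1L1, a mitochondrial protease, 403 bases away in hg19. It was at 67.9, 66.2 and 58.7 FPKM in siNT and at 66.6, 63.8 and 56.9 FPKM in siE2F7, a log2 change of -0.04 ± 0.06 (SE, limma, adjusted p = 0.695), beside 0.74 for MASTL. CSTF1, a polyadenylation factor 75 bases from AURKA, rose from 0 to 12 h by 0.60 on the log2 scale (adjusted p = 0.0031), where AURKA rose by 1.57. Of the 10 nearest entries it was the 1 that rose over that time and 2 fell, where 9.78% of all tested genes rose and 14.6% fell. The 2 were ELOVL4 beside TTK, by 0.61 (limma, adjusted p = 0.0174), and LPGAT1 beside NEK2, by 0.54 (limma, adjusted p = 0.0108). ESCO2, a cohesin acetyltransferase and the nearest tested entry to PBK, rose in siE2F7 with a log2 change of 0.38 (adjusted p = 0.0183), while PBK did not pass.

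In hg19 the entries span chromosome 20 from 54944445 to 54967351 for AURKA, chromosome 17 from 8108049 to 8113883 for AURKB, chromosome 2 from 111395409 to 111435684 for BUB1, chromosome 6 from 80714322 to 80752244 for TTK, chromosome 1 from 211831599 to 211848972 for NEK2, chromosome 9 from 36572859 to 36677680 for MELK and chromosome 10 from 27443753 to 27475848 for MASTL. BUB1B runs on chromosome 15 from 40453210 to 40569688 and PLK1 on chromosome 16 from 23690201 to 23724821. No entry overlaps another listed one. The entry of BUB1B covers 116479 bases, where the RefSeq gene covers 60055, and that of PLK1 covers 34621 bases, where the RefSeq gene covers 11479. RefSeq places BUB1B-PAK6 and PAK6 beyond the end of BUB1B and ERN2 beyond that of PLK1, and neither stretch has another entry in the tables used here. Whether reads of these neighbours entered the 2 values was not tested. The other 8 entries had spans within 0.959 to 1.004 times those of RefSeq.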

How the data were processed

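RNA from 6 libraries of U2OS cells was sequenced. The authors deposited 1 FPKM value per gene and library, with no counts, so depth and counting error are unknown. The submitters' processing notes name CASAVA 1.8 and hg19 (GRCh37); aligner, annotation, filters, strand and scaling across times were not given in the sources used here. The 0, 3 and 12 h tables listed 12799, 12475 and 12299 genes, the same in both arms. FPKM summed to 351305 to 375954 per library, with medians of 10.1 to 10.6.

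Here, limma 3.58.1 (R 4.3.3) was fitted to log2(FPKM + 0.1) of 11886 genes, with time as a block, arm as the term tested and a variance trend; fold changes on this scale understate low genes. It had 2 residual and 5.41 prior degrees of freedom. The test at 12 h added an arm-by-12 h term. p-values were adjusted by Benjamini-Hochberg over all genes, with a threshold of 0.05. The fit was tested on simulated data with known changes. The test of arm recovered 31 of 50 genes changed 1.5-fold, 50 of 50 changed 2-fold and 50 of 50 changed 4-fold, with 20 false calls. The test at 12 h recovered 47 of 50 genes changed 4-fold, with 40 false calls. In both tests false calls were a larger share of all calls than the 0.05 aimed at, and more so at 12 h. Adjusted p-values of both tests may therefore be too small. Intervals are 95% from limma, and each ± is its SE. Alternatives changed the pseudocount, the filter, the scaling, the trend, the block and the times used.

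The 10 kinases and all lists were chosen with earlier results of these data known. The text names all 10 kinases, the genes of lists of up to 12 that passed, and partners and substrates of a kinase. It also names the 8 genes most like the kinases over the libraries. In longer lists it names the 4 highest rises and any fall that passed. Of the other genes of those lists that passed, SLK, NEK7, TOP2A and KIF23 are named only for calls that did not hold. Others, such as MCM7 and CDC6, are in the counts only. Older symbols were matched through RefSeq and gene name tables (KNL1 as CASC5). Promoter sequences are from RefSeq, GRCh38.p14.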

Additional observations from a re-analysis of the deposited data

Results flagged for a closer look

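MCM6, a helicase subunit in the list of G1/S E2F targets set beside the kinases, passed the test of the 12 h ratio against the earlier times. Its log2 ratio was 1.75 at 0 h, 2.02 at 3 h and 3.04 at 12 h, and the 12 h ratio exceeded the mean of the other 2 by 1.15 (limma, adjusted p = 0.0388). In siNT it was at 32.9, 22.4 and 11.5 FPKM and in siE2F7 at 110.4, 91.5 and 95.4 FPKM, so both arms were below their 0 h level at 12 h, by more in siNT. None of the 10 kinases passed this test. The test had 1 residual degree of freedom, and in simulated data it made 40 false calls beside 47 true ones. The 12 h ratio of MCM6 rests on 1 pair, so its call may be false.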

How the results depend on the processing

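Over all genes 1650 passed in siE2F7 against siNT. Without the variance trend 852 did, without the time block 32, and with 1 time left out 763 to 1109. Of the kinases 2 passed, against 1 without the trend, 0 without the block and 1 to 2 with a time left out. Without the 12 h libraries the 2 were MASTL, higher, and AURKA, lower, and BUB1B did not pass. The 12 h test was passed by 16 genes, against 83 after quantile normalization, 37 after centring libraries on their median and 4 without the trend, and by no kinase in any of these. For 3 h against 0 h 2281 genes passed, and 1400 without the trend, where 0 kinases passed in place of 1. With a time left out, the log2 change in siE2F7 ran from -0.24 to 0.11 for PLK1, -0.20 to 0.079 for TTK, -0.063 to 0.051 for AURKB and -0.039 to 0.21 for PBK, changing sign. Taken in siNT alone, the change from 0 to 12 h was -0.11 for MELK and -0.0017 for PBK. The change from 0 to 3 h was 0.027 for AURKB after quantile normalization, 0.051 after centring and 0.015 in siNT alone, -0.089 for BUB1 in siNT alone and 0.067 for PBK in siE2F7 alone. The cause of these differences was not tested, beyond fewer libraries where a time or arm was left out. Of 110 alternative values of the kinases in siE2F7 98 kept their direction and side of the threshold. Without the trend, the named partners and markers BIRC5, BUB3, KNL1, ZWINT, LIN52, CENPA, KIF11 and ALPL did not pass either (adjusted p from 0.0508 to 0.0937). Pseudocounts of 0.01 and 1, a minimum mean of 1 FPKM and both scalings moved no call of a kinase in siE2F7. No paired analysis by replicate number was possible because each group has 1 library; time served as the block. With 1 library per arm and time and no counts, differences at a single time have no error.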
